A study of Mus musculus with 6 samples.

Results

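The genes that make, bind, sense and remove retinoic acid were examined in sorted collecting duct cells of newborn mice. The set holds 9 genes, chosen by name: Aldh1a1, Aldh1a2 and Aldh1a3 for synthesis, Crabp1 and Crabp2 for binding, Rara, Rarb and Rarg as receptors, and Cyp26b1 for removal. Every probe whose RefSeq accession belongs to one of them was taken, which gave 11 probes among 55681 on the array, and 9 genes among 20887 that could be named. Rara and Rarb have 2 probes each, and every member has at least 1 probe that was well above background in all 3 pools of both genotypes.

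The MUT group comprised 3 pools of cells from Hoxb7cre+; R26RtdTomato; Bdkrb2f/f kidneys, in which the bradykinin B2 receptor gene is deleted by Cre under the Hoxb7 promoter, that is, in the ureteric bud lineage. The WT group comprised 3 pools from Hoxb7cre+; R26RtdTomato; Bdkrb2+/+ kidneys, so Cre and the reporter were present in both genotypes. All mice were C57BL/6, were taken at postnatal day 1 and had kidneys under salt stress, and all cells were sorted as GFP+ and tdTomato+. Each of the 6 arrays carried a pool in Cy5 and RNA of WT pool 1 in Cy3, so that WT pool 1 was hybridised against itself. How many mice went into each pool was not found in the labels. Values are normalised log2 ratios to WT pool 1, and a difference is the MUT mean minus the WT mean with the standard error of limma's fit over all 29003 tested probes. A probe was called changed at a Benjamini-Hochberg adjusted p under 0.05.

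Retinoic acid is made from vitamin A: retinol is oxidised to retinaldehyde, and the ALDH1A enzymes oxidise retinaldehyde to retinoic acid. In the cell the acid is bound by the CRABP proteins. In the nucleus, receptors of the RAR family, paired with RXR, bind direct repeats of a short half-site in DNA and switch genes on or off. CYP26 enzymes break the acid down. In the developing mouse kidney, Aldh1a2 is known from the stroma and Aldh1a3 from the ureteric bud, and retinoic acid signalling maintains the growth receptor Ret in the bud.

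The Cy5 channel had 30821 to 31314 probes well above background in the MUT pools and 27022 to 28647 in the WT pools, and no spot was saturated. The number of arrays limits the precision, and p-values measure the spread between these pools. MUT pool 1 stood apart from the other MUT pools: over all tested probes the SD of the difference in log2 ratio was 0.446 to MUT pool 2 and 0.445 to MUT pool 3, against 0.207 between those 2 and 0.217 to 0.245 between WT pools. Without it Aldh1a2 differed by 1.65, Rarb by 0.74 and Crabp1 by 0.52, each still called. The single Bdkrb2 probe was well above background on none of the arrays, with ratios of −0.02, 0.05 and −0.08 in MUT pools and 0.12, 0.09 and −0.16 in WT pools, so it gives no check of the genotype. Markers of the sorted lineage were measured on the arrays of both groups, but 10 of 15 tested ureteric bud and collecting duct genes fell in MUT and none rose. Hoxb7 itself differed by −0.69 ± 0.12 (adjusted p = 0.00435). Markers of other cells moved with genotype as well: 12 of 15 renal stroma genes rose and 1 fell, and 10 of 12 nephron progenitor genes rose. The mean linear ratio of the stroma list was 2.31 to 2.50 in MUT pools and 0.545 to 1.07 in WT pools, that of the progenitor list 3.81 to 5.78 in MUT pools and 0.905 to 1.10 in WT pools, and that of the ureteric list 0.628 to 0.848 in MUT pools and 0.977 to 1.32 in WT pools. Of leukocyte genes, 9 of 10 rose and 1 fell, and of podocyte genes 1 of 8 rose. Falling genes were 9 of 9 for principal cells, 10 of 10 for intercalated cells, 10 of 10 for loop and distal tubule, 9 of 10 for endothelium and 4 of 10 for proximal tubule. Over all 14586 tested genes, 14.0% rose and 18.8% fell. None of the tested markers was below background throughout a group. Tmem100 of the progenitor list was well above background in 3 MUT pools but only 1 WT pool. It thus entered the test through the MUT pools alone, and it is included in the progenitor count and mean given here. In RNA from many cells, fewer cells of a type and less RNA per cell cannot be told apart.

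The promoters of the 3 members that rose are shown first, because RAR proteins act through a direct repeat in the promoter of their own gene Rarb. The sequences are the 250 bases before the RefSeq start of transcription on assembly GRCm38.p6, 5′ to 3′ on the gene's strand. Capitals mark half-sites that stand as a direct repeat. The Rarb window lies at chr14:16575477-16575726 on the minus strand, that of Aldh1a2 at chr9:71215539-71215788 on the plus strand and that of Crabp1 at chr9:54764498-54764747 on the plus strand.
Rarb: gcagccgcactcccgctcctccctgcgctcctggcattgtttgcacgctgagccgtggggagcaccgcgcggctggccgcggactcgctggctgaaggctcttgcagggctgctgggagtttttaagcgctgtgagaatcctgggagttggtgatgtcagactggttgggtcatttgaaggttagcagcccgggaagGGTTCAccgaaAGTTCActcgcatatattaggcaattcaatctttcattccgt
Aldh1a2: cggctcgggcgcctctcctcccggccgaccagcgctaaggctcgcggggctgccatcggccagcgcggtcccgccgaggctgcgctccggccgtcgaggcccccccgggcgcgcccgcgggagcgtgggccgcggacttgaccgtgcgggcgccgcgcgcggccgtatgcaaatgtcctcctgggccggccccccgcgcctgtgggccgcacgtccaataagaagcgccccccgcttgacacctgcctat
Crabp1: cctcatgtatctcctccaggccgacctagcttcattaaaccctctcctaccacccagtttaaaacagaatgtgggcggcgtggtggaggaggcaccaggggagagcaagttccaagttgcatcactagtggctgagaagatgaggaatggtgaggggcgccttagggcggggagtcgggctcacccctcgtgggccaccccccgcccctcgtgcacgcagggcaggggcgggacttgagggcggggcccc

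The search used the half-sites AGGTCA (the common form), AGTTCA (a variant), GGTTCA (another variant) and GGGTCA (the last of the variants) as direct repeats with 1, 2 or 5 bases between them, on both strands, over windows from 250 bases before to 50 after the start. Windows were held for 7 of the 9 members, 12 windows in all. The Rarb window was the 1 that matched, by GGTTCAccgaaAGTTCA, which lies at chr14:16575513-16575529 and ends 37 bases before the start. Among 32851 promoters of the table, 32 (0.0974%) had the form with 5 bases between, and 193 (0.588%) had any of the 3 forms. The Rarb repeat was known beforehand, and its half-sites and spacing were among those searched. Its match was thus fixed by the choice, and these shares are a description only. The Aldh1a2 and Crabp1 windows held none of these letters in that arrangement. Aldh1a3 and Crabp2 were not among the windows used here. A match describes the letters of the window and was not set against binding in these cells.

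Aldh1a2 rose most among the 9 genes, and Rarb and Crabp1 rose too, while none fell. Rising genes were thus 3 of 9 members, where 14.0% of 14586 tested genes rose, and falling genes were 0 of 9, where 18.8% of tested genes fell. Taken in both directions, 3 of 9 stands close to the 32.8% of all tested genes that changed, so the share of members that changed is near the background. The median difference was −0.04 over the members and −0.02 over all tested genes. Of the 11 member probes, 4 rose and 0 fell, where 26.1% of 29003 tested probes changed, 11.6% upward and 14.6% downward. Aldh1a2 was the 1 member called with a difference of at least 1 in size, which 8.60% of tested genes reached. The MUT pools lay clear above the WT pools for the same 3 genes, against 24.2% of all tested genes, and clear below them for none, against 28.3% (52.5% in either direction). Scaling to the spike-in control probes, whose mean log2 ratios were −0.78 to −0.26 in MUT pools and −0.07 to 0.94 in WT pools, moved the median of all tested probes to 0.953. Under that scaling 18923 of 29003 tested probes changed, 98.91% of them higher in MUT, and 7 of 9 members rose, all but Aldh1a1 and Aldh1a3. Aldh1a2, Rarb and Crabp1 at 2.64, 1.79 and 1.55 were the members furthest above the median. The standard error there was 0.383 for every member, so its p-values do not measure the spread of each gene. They form the lowest end of the adjusted p ranges given below for Aldh1a2, Rarb and Crabp1, and the highest for Aldh1a1.

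Among the synthesis enzymes, Aldh1a2 was at 1.52, 1.39 and 1.45 in MUT pools, against −0.12, −0.26 and −0.31 in WT pools. All MUT pools were high and close to each other, and the groups were far apart. The difference was 1.68 ± 0.10 (95% interval 1.45 to 1.92), 3.21-fold, with an adjusted p of 0.000365. Its size exceeded that of 97.7% of tested genes. The net Cy5 intensity before normalisation was 29133.5, 23315 and 15522.5 in MUT pools, against 4538, 3249.5 and 3373 in WT pools. Rara and Rarg, which did not pass the test, were also brighter in every MUT pool before normalisation, so these intensities are given for scale only. Within the first row of the slide, which held all MUT pools and WT pool 1, the difference was 1.57 (adjusted p = 0.0143 with the row as a block, and 9.12e-10 to 0.0143 over the alternatives).

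Aldh1a1, another retinaldehyde dehydrogenase, did not pass the test. It was at −0.46, −0.50 and 0.14 in MUT pools, against 0.14, 1.38 and 0.49 in WT pools. WT pool 2 was by far the highest, and MUT pool 3 overlapped with WT pool 1. The difference was −0.94 ± 0.32 (95% interval −1.67 to −0.21, adjusted p = 0.0628). It came to −1.21 (adjusted p = 0.0408) without WT pool 1 and −0.59 (adjusted p = 0.124) without WT pool 2, in a range of 0.0408 to 0.975 over the alternatives. In row 1 of the slide it was −0.41 (adjusted p = 0.584). A fit on the mean of all tested probes of each gene, which changes both the variances and the number of tests, gave −0.94 (adjusted p = 0.0467).

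Aldh1a3, the bud enzyme of the 3, was at −0.36, −0.09 and 0.11 in MUT pools, against 0.09, 0.83 and 0.16 in WT pools. WT pool 2 was again the highest and the groups overlapped. The difference was −0.48 ± 0.21 (95% interval −0.97 to 0.02, adjusted p = 0.14), and −0.21 in row 1 of the slide and −0.24 without WT pool 2.

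**Figure D1:**
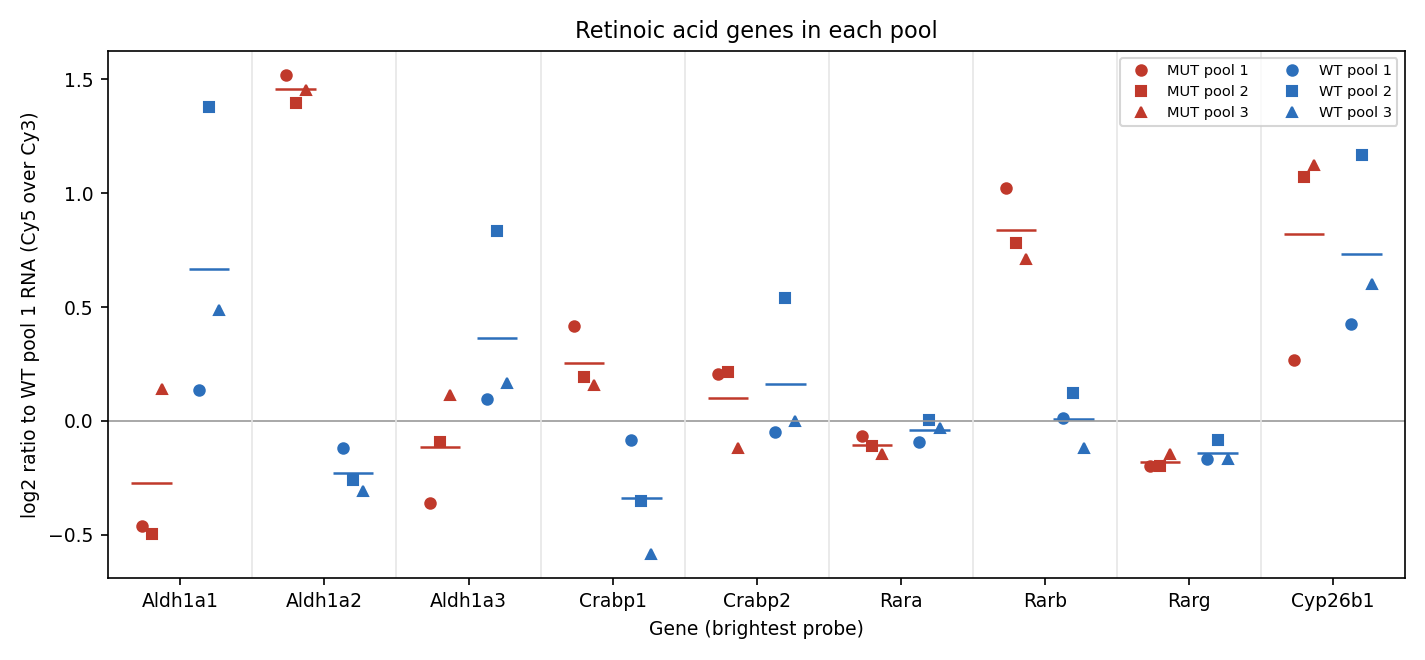
Log2 ratio to WT pool 1 (vertical axis) of each member in the 3 MUT and 3 WT pools on its brightest probe, with MUT in red to the left of WT in blue. Points are pools and short lines are group means. Aldh1a2 separates the genotypes most widely, with MUT pools at 1.39 to 1.52 and WT pools at −0.31 to −0.12.

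Of the binding proteins, Crabp1, which carries retinoic acid in the cytoplasm, was at 0.41, 0.19 and 0.16 in MUT pools, against −0.08, −0.35 and −0.58 in WT pools. The groups did not overlap, and the difference was 0.60 ± 0.15 (95% interval 0.25 to 0.94, adjusted p = 0.0217), 1.51-fold. The probe was dim, with net Cy5 intensities of 262, 234 and 223 in MUT pools, against 117, 43 and 36.5 in WT pools. The difference was 1.45 (adjusted p = 0.0241) on the scanner software's processed signals, which carry no offset of 50. The call did not hold in row 1 of the slide (0.34, adjusted p = 0.316), without MUT pool 2 (0.63, adjusted p = 0.0506), without WT pool 2 (0.59, adjusted p = 0.0653) or without WT pool 3 (0.47, adjusted p = 0.0858), in a range of 0.000732 to 0.316 over the alternatives. Crabp2, which delivers the acid to the receptors, was at 0.20, 0.21 and −0.12 in MUT pools, against −0.05, 0.54 and 0.0009 in WT pools. The groups overlapped, and the difference was −0.07 ± 0.18 (95% interval −0.48 to 0.35, adjusted p = 0.818).

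Among the receptors, Rarb was at 1.02, 0.78 and 0.71 in MUT pools, against 0.01, 0.12 and −0.12 in WT pools on its brighter probe. Every MUT pool lay above every WT pool. The difference was 0.83 ± 0.12 (95% interval 0.55 to 1.11, adjusted p = 0.00252), 1.78-fold, and in row 1 of the slide it was 0.83 (adjusted p = 0.0497, with 8.7e-05 to 0.0497 over the alternatives). The dimmer Rarb probe was at 0.55, 0.60 and 0.65 in MUT pools, against 0.15, −0.03 and −0.16 in WT pools. It also rose, by 0.61 ± 0.11 (adjusted p = 0.0062). With the slide row as a block it differed by 0.45 and was not called (adjusted p = 0.129). Rarb is the receptor whose promoter carries the direct repeat printed above, and the part of that repeat in its rise was not tested.

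Rara, the widely expressed receptor, was at −0.07, −0.11 and −0.14 in MUT pools, against −0.09, 0.0056 and −0.03 in WT pools on its brighter probe. The groups were close, with a difference of −0.07 ± 0.09 (95% interval −0.28 to 0.15, adjusted p = 0.634). The dimmer Rara probe was at 0.96, −0.09 and 0.07 in MUT pools, against 0.08, 0.25 and 0.02 in WT pools, and MUT pool 1 alone was high. Its difference of 0.20 ± 0.26 (adjusted p = 0.598) was −0.12 without MUT pool 1. Rarg was at −0.20, −0.20 and −0.14 in MUT pools, against −0.17, −0.08 and −0.17 in WT pools, a difference of −0.04 ± 0.09 (95% interval −0.25 to 0.17, adjusted p = 0.777). The intervals of Rara and Rarg do not reach the 0.83 of Rarb, but the differences between receptors were not tested.

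Cyp26b1, which oxidises retinoic acid for removal, was at 0.27, 1.07 and 1.12 in MUT pools, against 0.43, 1.17 and 0.60 in WT pools. The groups overlapped widely, and the difference was 0.09 ± 0.27 (95% interval −0.53 to 0.71, adjusted p = 0.835). On the array of WT pool 1 against itself the members lay between −0.17 and 0.43, with Cyp26b1 at the top, so a ratio of that size arises there without a difference in RNA.

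**Figure D2:**
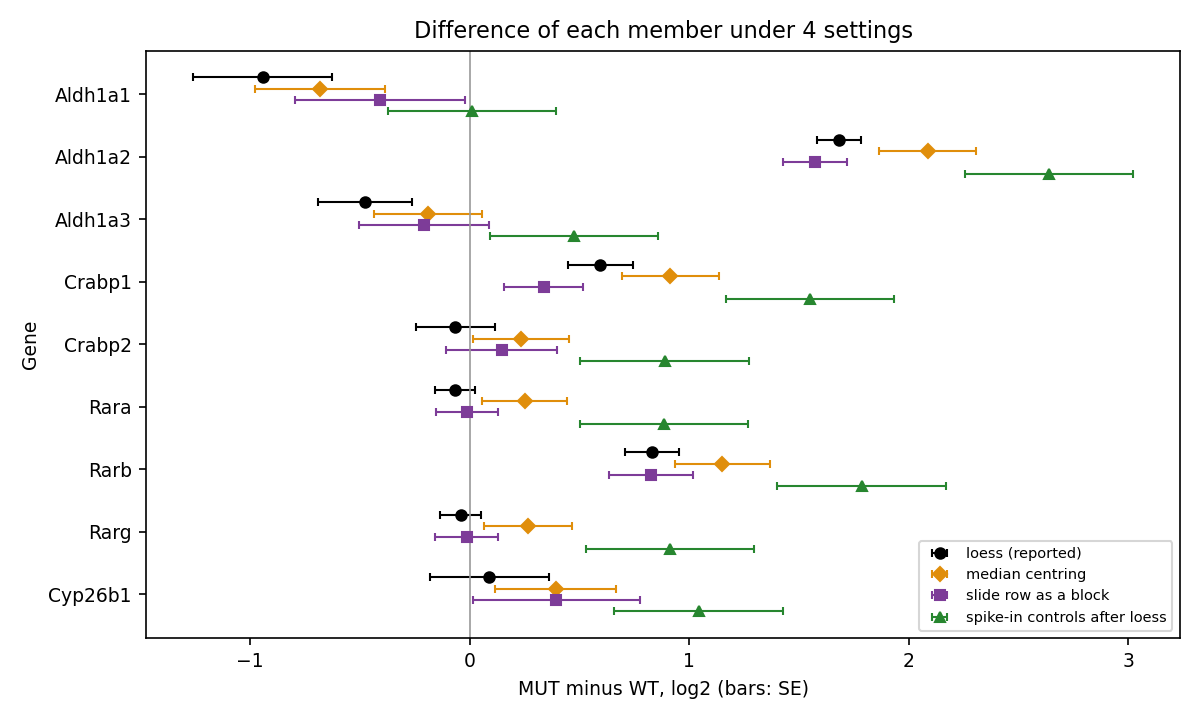
Difference of MUT minus WT in log2 units (horizontal axis) for each member under 4 settings, namely loess as reported, median centring, the slide row as a block and spike-in scaling, with bars for the SE. Aldh1a2 lies between 1.57 and 2.64 and Rarb between 0.83 and 1.79, while Rara, Rarg, Crabp2, Aldh1a1 and Aldh1a3 lie on both sides of 0.

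The wider pathway was read from 64 listed genes for retinol transport, conversion, RXR and partners, coregulators and responding genes, of which 52 were tested. In MUT, 9 rose and 6 fell, where 14.0% of all tested genes rose and 18.8% fell (32.8% in either direction). The other 37 did not pass, with differences between −0.44 and 0.75 on their brightest probes. With the slide row as a block fewer of these genes changed, and fewer of all tested probes as well. The median difference of the 52 was −0.06, against −0.02 over all tested genes. The other 12 (Rbp2, Lrat, Rdh7, Dhrs9, Adh4, Adh7, Bco1, Rpe65, Cyp26c1, Stra8, Hoxb1 and Cdx1) were well above background throughout neither group. Of the 6 that fell, Aldh1a7, Cyp2s1, Hoxb4 and Ppard lay above 0 under spike-in scaling, at 0.35 to 0.57, which is below the median of all probes there, and Ttr at −0.56 was no longer called (adjusted p = 0.168). These lists were put together with earlier results of the data known, and their counts are a description.

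Of the 5 transport and storage genes tested, 0 rose and 1 fell, where 14.0% of all tested genes rose and 18.8% fell. Ttr, which takes part in carrying retinol in blood, was at −1.84, −2.10 and −2.45 in MUT pools, against −0.02, −1.05 and −0.77 in WT pools, a difference of −1.52 ± 0.27 (adjusted p = 0.00554). All MUT pools were lower than all WT pools. Of the 14 conversion genes, 2 rose and 1 fell, against the same shares of all tested genes. Rdh10, the dehydrogenase that supplies retinaldehyde in the embryo, was at 1.19, 0.98 and 1.15 in MUT pools, against −0.04, 0.22 and −0.16 in WT pools, a difference of 1.10 ± 0.13 (adjusted p = 0.00102). Adh1, an alcohol dehydrogenase that also oxidises retinol, was at −2.09, −2.19 and −1.73 in MUT pools, against −0.33, 0.12 and −0.09 in WT pools, a difference of −1.90 ± 0.16 (adjusted p = 0.000441). Thus these 2 of the 14 conversion genes moved in opposite directions by amounts far beyond the spread of the pools, while 11 of the 14 did not pass. Rdh5, another retinol dehydrogenase, rose by 0.47 ± 0.13 (adjusted p = 0.0351).

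In the group of other enzymes, Aldh1b1, a mitochondrial aldehyde dehydrogenase, rose by 0.43 ± 0.13 (adjusted p = 0.0434). Aldh1a7, a close mouse relative of Aldh1a1, was lower at −0.61 ± 0.14 (adjusted p = 0.0154), and Cyp2s1 at −0.55 ± 0.13 (adjusted p = 0.018). Whether the Aldh1a1 and Aldh1a7 probes share signal was not tested. Fabp5, which carries retinoic acid towards the nuclear receptor PPARD, rose by 0.66 ± 0.12 (adjusted p = 0.00727), while Ppard itself was lower at −0.39 ± 0.10 (adjusted p = 0.0207). Rxrg, a receptor partner, did not pass on its brighter probe (0.09, adjusted p = 0.574). Its dimmer probe was well above background in 3 of 3 MUT pools and 0 of 3 WT pools, so it entered the test through the MUT pools alone, and no size is given for it. All 10 coactivators and corepressors stayed short of the threshold, between −0.34 and 0.22 on their brightest probes, where 32.8% of all tested genes changed. Their dimmer probes did not pass either, and ran from −0.75 (Med1, adjusted p = 0.122) to 0.29 (Ncor1, adjusted p = 0.138). Rdh5, Aldh1b1, Aldh1a7, Cyp2s1 and Ppard each lost their call with the slide row as a block (adjusted p = 0.281, 0.453, 0.174, 0.132 and 0.207). Median centring ended the calls of Aldh1a7 (−0.41, adjusted p = 0.192), Cyp2s1 (−0.25, adjusted p = 0.413) and Ppard (−0.11, adjusted p = 0.724), and the scanner software's processed signals those of Rdh5 (0.52, adjusted p = 0.0792), Aldh1b1 (0.60, adjusted p = 0.114) and Cyp2s1 (−0.51, adjusted p = 0.0646). Calls were also lost when a pool was left out. Without MUT pool 2 the adjusted p was 0.0618 for Rdh5, 0.0643 for Aldh1b1, 0.0549 for Aldh1a7, 0.0601 for Cyp2s1 and 0.0506 for Ppard. Without WT pool 3 it was 0.138 for Rdh5, 0.138 for Aldh1b1, 0.0783 for Cyp2s1 and 0.0942 for Ppard. Leaving out WT pool 1 gave 0.0819 for Rdh5, 0.0674 for Cyp2s1 and 0.0613 for Ppard, and leaving out WT pool 2 gave 0.0767 for Rdh5, 0.127 for Aldh1b1 and 0.0504 for Ppard. The call of Aldh1b1 was also lost without MUT pool 1 (0.0533) and without MUT pool 3 (0.0774).

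Of 17 tested genes described as responding to retinoic acid, 5 rose and 1 fell, where 14.0% of all tested genes rose and 18.8% fell. The median difference of the 17 was 0.12. Meis1 and Meis2, homeobox factors, rose by 2.94 ± 0.25 (adjusted p = 0.000414) and 1.43 ± 0.20 (adjusted p = 0.00193), Ecm1, an extracellular matrix protein, by 2.50 ± 0.22 (adjusted p = 0.000451), Rai14 by 1.35 ± 0.13 (adjusted p = 0.000509) and Rarres2, which encodes chemerin, by 1.34 ± 0.27 (adjusted p = 0.00903). Hoxb4 was lower at −0.54 ± 0.09 (adjusted p = 0.00487). In row 1 of the slide Rarres2 differed by 0.68 (adjusted p = 0.091) and Hoxb4 by −0.48 (adjusted p = 0.0961), and with median centring Hoxb4 differed by −0.24 (adjusted p = 0.402). Meis1 was at 2.79, 2.76 and 2.61 in MUT pools, against 0.29, −0.14 and −0.80 in WT pools. Meis1 and Meis2 also stand on the stroma marker list, which rose as given above. The part of the stroma and progenitor markers in these results, and in those of Aldh1a2 and Rarb, was not tested. Ret was at 0.69, 0.90 and 1.02 in MUT pools, against 0.31, 1.97 and 0.68 in WT pools, with a difference of −0.12 ± 0.38 (adjusted p = 0.847).

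**Figure D3:**
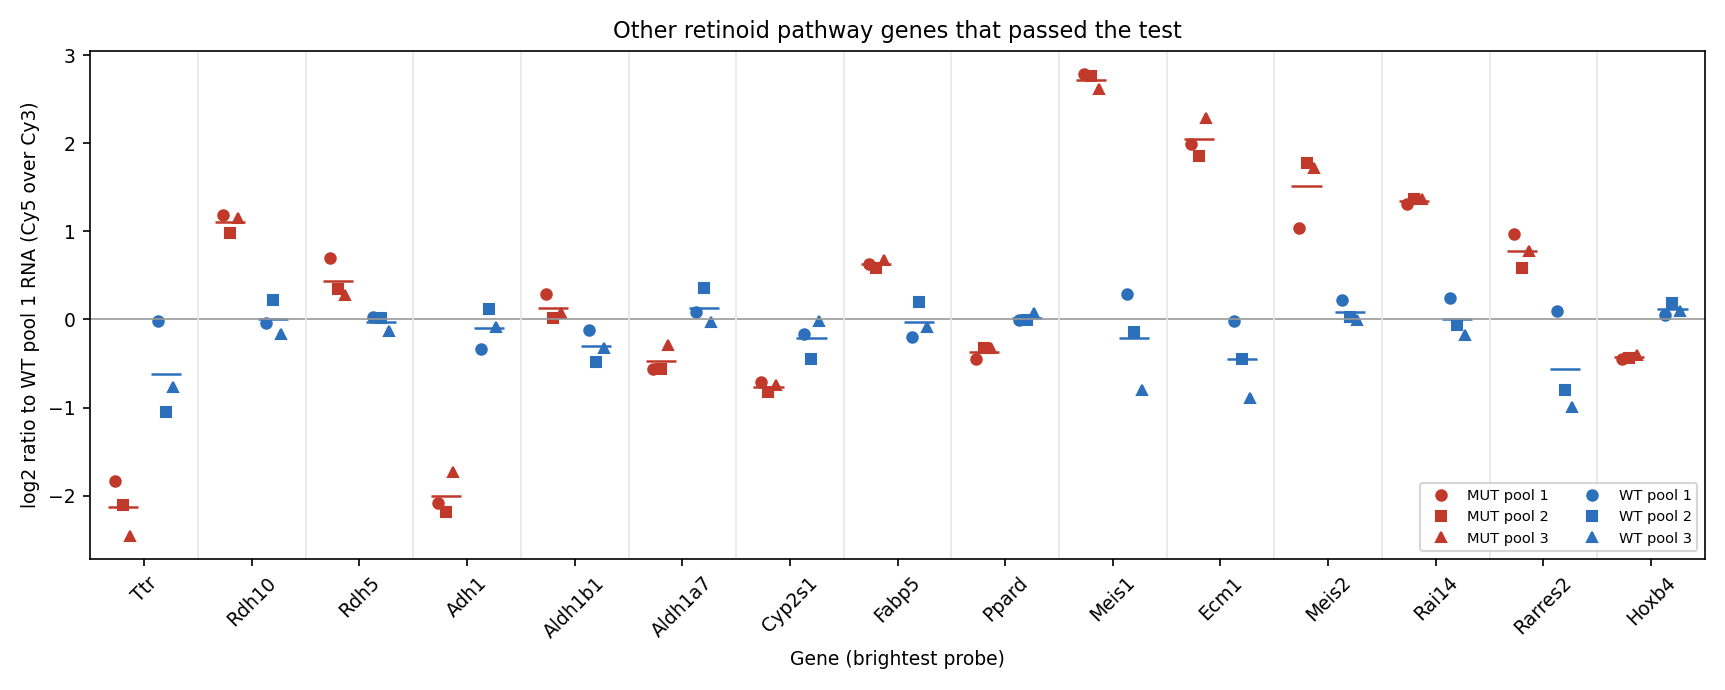
Log2 ratio to WT pool 1 of the pathway genes that passed the test, with MUT pools in red to the left of WT pools in blue and short lines for group means. Meis1 stands at 2.61 to 2.79 in MUT pools and −0.80 to 0.29 in WT pools, and Adh1 at −2.19 to −1.73 in MUT pools and −0.33 to 0.12 in WT pools.

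The WT pools were not alike for several members. In WT pool 2, 4 of 9 members (44.4%) lay at least 0.5 above both other WT pools, namely Aldh1a1 by 0.89, Aldh1a3 by 0.67, Cyp26b1 by 0.57 and Crabp2 by 0.54. The same held for 104 of 14586 genes (0.713%) and for 2 of 52 pathway genes (3.85%), which were Stra6 by 1.37 and Ret by 1.29. This pattern was noticed in the values and has no test. Some markers of cell types also set this pool apart, in both directions. For the ureteric list WT pool 2 had a mean linear ratio of 1.32, against 0.977 for WT pool 1 and 1.07 for WT pool 3. That list includes Ret and the tip gene Wnt11, which was at a log2 ratio of 1.19, against −0.10 and 0.06 in those pools. The median log2 ratio of the list set WT pool 2 less apart, at 0.09 against −0.03 and −0.0012. Krt7, Calb1, Tfcp2l1 and Cdh1 of the same list were lowest in WT pool 2. The same pool was low for intercalated cells (0.729, against 1.08 and 1.16), for the loop of Henle and distal tubule (0.585, against 0.996 and 1.03) and for the proximal tubule (0.622, against 1.09 and 0.927). The nephron progenitor list, at 1.06, lay between WT pool 1 at 1.10 and WT pool 3 at 0.905, with Six2 high in WT pool 2 (0.68, against −0.06 and −0.32 on the log2 scale) and Wt1 at −0.95, against 0.50 and −1.45. The part of these markers in the members' values was not tested. Stra6, a receptor for retinol uptake, was at 1.05, 1.10 and 1.24 in MUT pools, against −0.11, 1.31 and −0.07 in WT pools. WT pool 2 thus stood with the MUT pools for Stra6, and the difference of 0.75 ± 0.35 did not pass (adjusted p = 0.148).

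**Figure D4:**
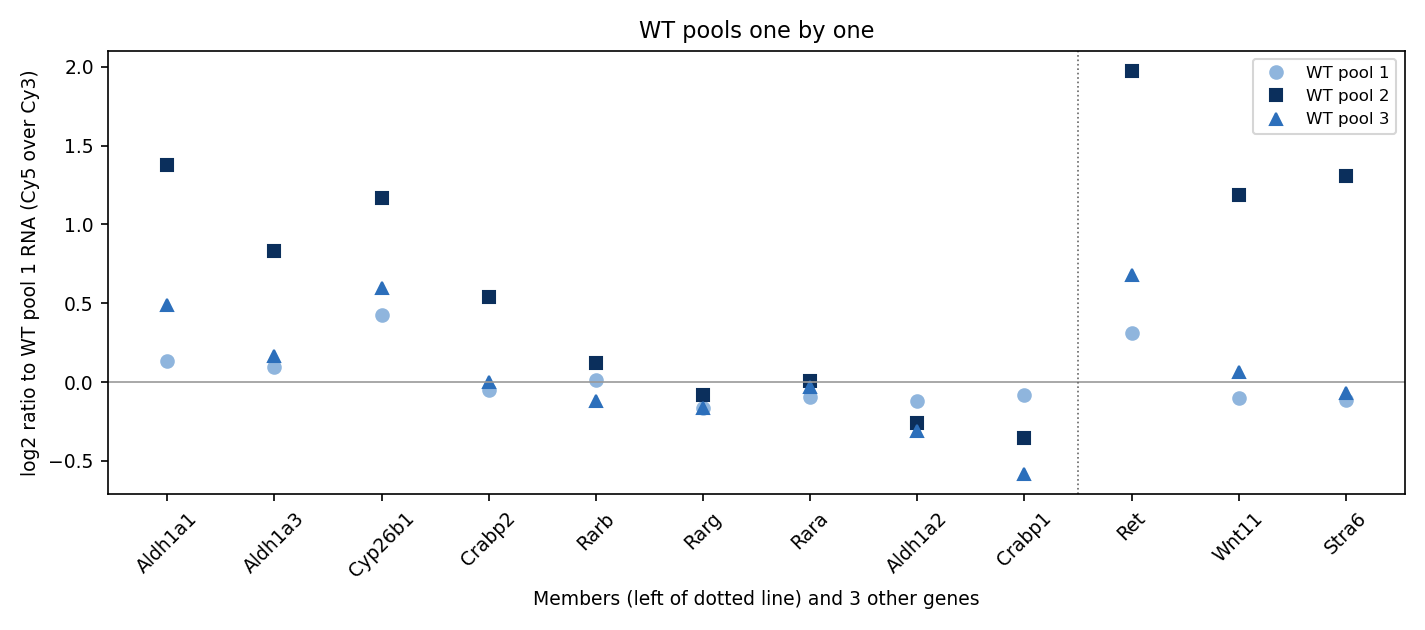
Log2 ratio to WT pool 1 (vertical axis) in each WT pool for the 9 members and, right of the dotted line, Ret, Wnt11 and Stra6. WT pool 2 lies above both other WT pools by 0.54 to 0.89 in Aldh1a1, Aldh1a3, Cyp26b1 and Crabp2, and by 1.12 to 1.37 in the 3 other genes.

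The genes whose profile over the 6 arrays was nearest to that of Aldh1a2, by root mean square difference of log2 ratios, were Ednra at 0.12, Dact1 at 0.13 and Tnni1 at 0.14. Having been chosen for that likeness, they necessarily resemble it in the difference between genotypes, which was 1.71, 1.60 and 1.62. Nearest to Aldh1a1 were Marchf11 at 0.20, Gdf15 at 0.21 and Drd4 at 0.25, with WT pool 2 the highest pool in each. Their differences, likewise fixed by the choice, were −0.77, −1.04 and −0.71.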

How the data were processed

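Arrays were Agilent mouse whole genome oligonucleotide arrays with 59305 non-control spots on 1 slide, and the submitters' processing notes name Agilent Feature Extraction (version 10.7.3.1). Per the file headers, row 1 of the slide held every MUT pool with WT pool 1, and row 2 held the other 2 WT pools. The deposited files hold spot intensity in each channel and the scanner software's log10 ratio (Cy5 over Cy3). This ratio also forms the deposited value table (differences of at most 0.00499). The log ratios in that table had a median of 0 on each array. No dye was swapped. The labels call the pools biological replicates.

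Median signals had their local background removed by normexp (offset 50) and were normalised by loess within arrays, with control spots at weight 0. Spots of a probe were averaged, and a probe entered the fit if its Cy5 signal was well above background throughout at least 1 group. The genotypes were compared in limma (lmFit, eBayes) without covariates and Benjamini-Hochberg adjustment over all tested probes. Accessions were matched without versions to the GRCm38.p6 RefSeq table, which named 27509 probes, and a gene was counted by its brightest tested probe. The file headers name another assembly, so the only coordinates given are those of the RefSeq promoter table. Named were all members with every probe, every pathway gene called except 1 that is not reported here and is left out of the list counts, and the 3 genes nearest to the member with the lowest p on each side. Ret, Stra6, Wnt11 and Six2 were named after their values were seen. Members and lists were chosen with earlier results of these data known. The fit was checked on simulated data of 29003 probes, which recovered 26.9%, 67.2% and 90.9% of changes of 0.5, 1 and 2 on the log2 scale, with median estimates of 0.342, 0.76 and 1.22, below the simulated size, so printed folds may be too small. Software was R 4.3.3, limma 3.58.1, data.table (version 1.17.8), Python 3.11.15, pandas 2.3.3 and matplotlib 3.10.9.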

Additional observations from a re-analysis of the deposited data

How the results depend on the processing

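Aldh1a2 and Rarb kept their direction and call under all 18 alternatives, in ranges of 1.57 to 2.64 and 0.72 to 1.79 (log2 MUT minus WT). The scaling matters most. Scaling to the spike-in probes moved the median of all probes by 0.953 and gave 18923 changed probes, 7 changed members and 34 changed pathway genes, with 98.91% of changed probes higher in MUT, against 44.19% as reported. The p-values of the members here rest on 1 common standard error. Differences in this setting are read relative to that median. In it, Rara was 0.887, Rarg 0.913, Crabp2 0.888, Aldh1a1 0.013, Aldh1a3 0.476, Aldh1a7 0.347, Cyp2s1 0.404, Hoxb4 0.409 and Ppard 0.566. Centring on the median moved the median of all probes by 0.229 and put 77.25% of changed probes higher in MUT, with Rara at 0.251, Rarg at 0.265 and Crabp2 at 0.235. With slide row as a block (in effect MUT against WT pool 1), 2194 probes and 8 pathway genes changed, 31.49% of the probes higher in MUT, and Crabp2 was 0.146. The Cy5 channel alone gave Rara 0.023, Rarg 0.129 and Crabp2 0.004. Rara was 0.024 with processed signals and with the deposited table, and 0.067 as the mean of its probes.

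Leaving out each pool in turn gave 3831 changed probes (without WT pool 3) to 9536 (without MUT pool 1), 4890 without WT pool 1, 2 to 4 changed members and 10 to 18 changed pathway genes. Crabp2 ran from −0.171 to 0.122, with 0.044 without MUT pool 3 and 0.122 without WT pool 2. Cyp26b1 ran from −0.063 to 0.366, with −0.035 without MUT pool 2, −0.062 without MUT pool 3 and −0.063 without WT pool 1. The dimmer Rara probe ran from −0.123 (without MUT pool 1) to 0.402. The cause of these changes was not tested.

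Pools with the same number in both groups deviated together weakly (correlations of 0.143, 0.072 and 0.197). Pools with different numbers had correlations of −0.162 to −0.006. Deviations were taken from the mean of each group, so positive values for some pairs force negative values for others. The contrast is thus partly fixed and is no test of a pairing. The reported fit did not use the numbers as a pairing. With the pool number as a replicate block, 7247 probes, 3 members and 16 pathway genes changed. Signal near background limits Crabp1, and the 3 pools per group limit every small difference.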
